A study of Mus musculus with 12 samples.

Results

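The genes described here are 9 markers by which mesenchymal stromal cells of mouse bone marrow are commonly recognised: Eng, Thy1, Nt5e, Ly6a, Pdgfra, Pdgfrb, Lepr, Nes and Mcam. They were taken by name out of 21001 genes listed in RNA sequencing of bone marrow stromal cells (BMSCs), and all 9 were found. The 12 libraries came from C57BL/6 cells that carried green fluorescent protein (GFP), of a genotype labelled "wide type", with 3 libraries in each of 4 groups. TUMOR was GFP-BMSCs taken back from the inoculation site of mice co-injected with GFP-BMSCs and RFP-LLC cells, a mouse Lewis lung carcinoma line carrying a red fluorescent protein. BM was GFP-BMSCs taken from the bone marrow of such co-injected, tumour-bearing mice. HOMING was GFP-BMSCs taken from the marrow of mice given a subcutaneous injection of GFP-BMSCs with no tumour cells. NC was GFP-BMSCs in primary culture. All cells were sorted, but the gate, the purity, the age of the mice and the number of donors are not given in the sources used here. The labels do not say whether the 3 libraries of a group came from separate animals or cultures, so the p-values measure only the spread between these samples, which may be technical.

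Stromal cells of the marrow lie around sinusoids and arterioles, feed blood stem cells with growth factors and chemokines, and give rise to bone and fat cells. In culture they are usually defined by adherence, by the surface antigens CD105 (Eng), CD90 (Thy1) and CD73 (Nt5e), and by the lack of leukocyte antigens. In the mouse, Sca-1 (Ly6a) with PDGF receptor alpha (Pdgfra) marks stromal progenitors, the leptin receptor (Lepr) marks the perivascular cells of adult marrow, and nestin (Nes), PDGF receptor beta (Pdgfrb) and CD146 (Mcam) mark stromal cells or pericytes along vessels.

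Libraries held 43232145 to 46166519 expected counts, which are the estimated reads per gene. Levels are given as FPKM, a unit that divides fragments by transcript length and library depth, so that genes of different length can be set side by side. Of the 9 markers, 6 passed the filter of at least 1 FPKM in at least 3 libraries and were tested among 12314 genes in edgeR's quasi-likelihood test. Calls required a change of at least 2-fold and a Benjamini-Hochberg adjusted p under 0.05. Thy1, Nt5e and Lepr were under the filter and are described from a fit of 20956 genes without it. Blood markers set HOMING apart. Summed neutrophil markers were 0.9 to 2.54 FPKM in TUMOR, 49.42 to 57.78 in BM, 1704.19 to 2491.93 in HOMING and 1.3 to 2.72 in NC. All 10 markers averaged above 1 FPKM in HOMING. Summed erythroid markers were 2107.47 to 3471.06 FPKM in HOMING and at most 3.55 in the other libraries. HOMING replicate 3 was the highest in Ptprc, the pan-leukocyte antigen CD45, with 10.61 FPKM against 5.94 in each of the other HOMING libraries. In such bulk samples, fewer cells of a type and less RNA per cell cannot be told apart.

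The level of each marker in every library is shown in the plot by group. Ly6a led in all 12 libraries and made up 48.6 to 66.5% of the summed FPKM of the 9 markers. In NC its mean exceeded that of 94.4% of the listed genes. Eng, Pdgfra, Pdgfrb, Nes and Mcam lay in a middle range of 0.85 to 19.9 FPKM. Thy1, Nt5e and Lepr never reached 1 FPKM in any of the 12 libraries, so 3 of the 9 markers were at low levels in the culture as well as in the recovered cells. Eng was also low in culture, at 0.943 ± 0.0902 FPKM (SD, n = 3).

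**Figure D1:**
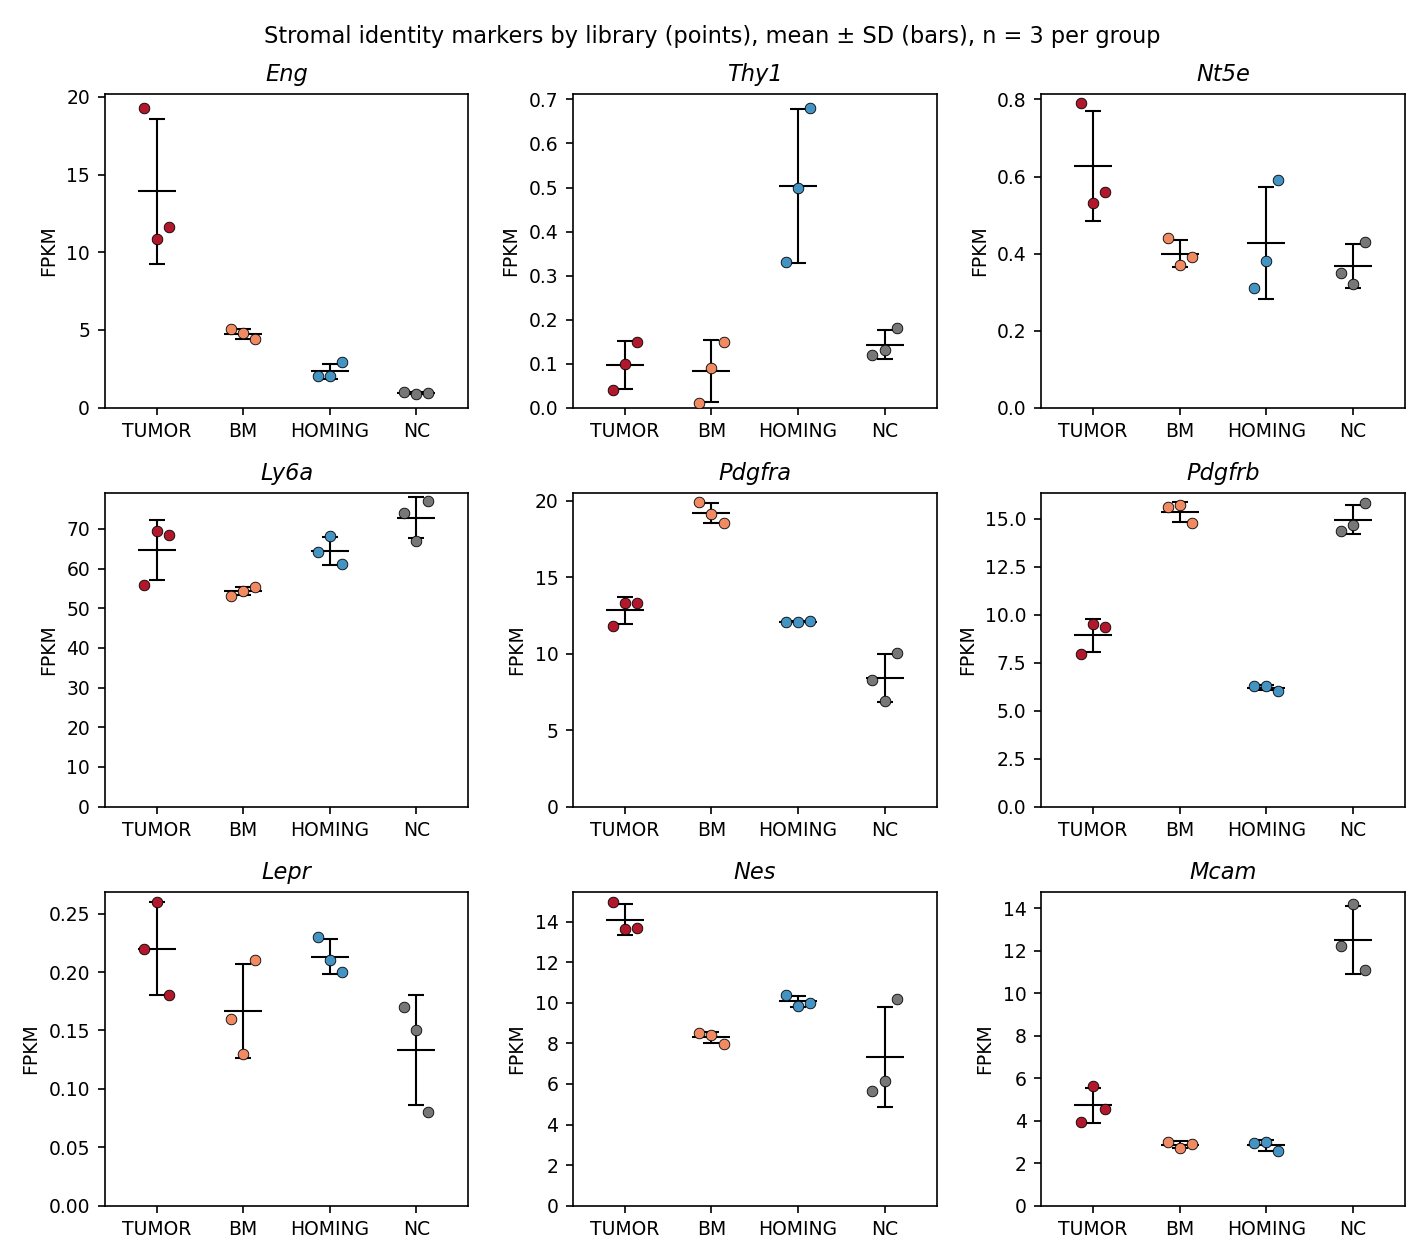
FPKM of the 9 markers in each of the 12 libraries, with 1 point per library and the mean ± SD of the 3 libraries of a group as bars (linear axes from 0, scaled per gene). Eng is highest in TUMOR and lowest in NC, Mcam is highest in NC, and Thy1, Nt5e and Lepr stay under 1 FPKM in every group.

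By log2 fold change Eng was the tested marker furthest above culture and Mcam the one furthest below it, and the bases just before their transcription starts are printed for that reason. RefSeq promoter sequences were examined for 6 of the 9 markers (build GRCm38.p6), and not for Thy1, Ly6a and Pdgfrb. Each line holds the 250 bases before the start on the plus strand, chr2:32646345-32646594 for Eng and chr9:44134408-44134657 for Mcam. In Eng, capitals mark CAGAC or its reverse complement GTCTG, a SMAD-binding element, which transcription factors of the TGF-beta pathway can bind. In Mcam they mark the GC box GGGCGG or its reverse complement CCGCCC.
Eng: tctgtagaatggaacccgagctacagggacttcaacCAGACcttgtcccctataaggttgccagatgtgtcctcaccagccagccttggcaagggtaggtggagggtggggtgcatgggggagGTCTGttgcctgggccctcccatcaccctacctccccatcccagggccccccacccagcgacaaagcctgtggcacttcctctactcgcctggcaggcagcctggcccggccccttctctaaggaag
Mcam: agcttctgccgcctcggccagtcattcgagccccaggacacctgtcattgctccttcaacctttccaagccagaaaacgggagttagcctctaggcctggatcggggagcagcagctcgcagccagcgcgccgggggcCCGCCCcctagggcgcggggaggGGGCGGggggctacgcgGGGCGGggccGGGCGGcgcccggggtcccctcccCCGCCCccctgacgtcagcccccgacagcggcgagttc
The Eng window held 2 SMAD-binding elements and no GC box, and the Mcam window held 5 GC boxes and no SMAD-binding element. Over 32851 promoters of that length, 42.2% held CAGAC and 32.7% held GGGCGG on either strand. G and C made up 62.4% of the Eng window and 73.6% of the Mcam window, against a median of 52.4% over all promoters. No TATAAA motif, present in 12.4% of promoters, was found in the windows of the 6 markers. Nt5e held 4 GC boxes and 2 SMAD-binding elements, and Nes held 2 GC boxes and 1 SMAD-binding element. These matches describe the letters only, and binding was not measured.

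The plot of log2 fold changes gives the 9 markers in all 6 comparisons. In BM against HOMING 2 of the 6 tested markers were called, both higher, where 10.4% of all tested genes passed and 3.71% were higher. In TUMOR against NC 1 marker was higher and 1 lower, beside 16.4% of all tested genes called (9.75% higher, 6.65% lower). In BM against NC 2 markers were higher and 1 lower, beside 11.5% of all tested genes (7.93% higher, 3.57% lower). In HOMING against NC 1 marker was higher and 2 were lower, beside 14.3% of all tested genes (9.64% higher, 4.69% lower). Eng alone was called in TUMOR against BM, where 14.2% of all tested genes passed and 6.95% were higher, and in TUMOR against HOMING, where 10.8% passed and 4.42% were higher. The median log2 fold change of the 6 markers was 0.365 in BM against HOMING, 0.092 in TUMOR against NC, 0.019 in BM against NC, 0.023 in HOMING against NC, 0.441 in TUMOR against BM and 0.49 in TUMOR against HOMING, beside medians of -0.0047 to 0.0157 over all tested genes. The 6 comparisons share libraries with each other and are not independent.

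**Figure D2:**
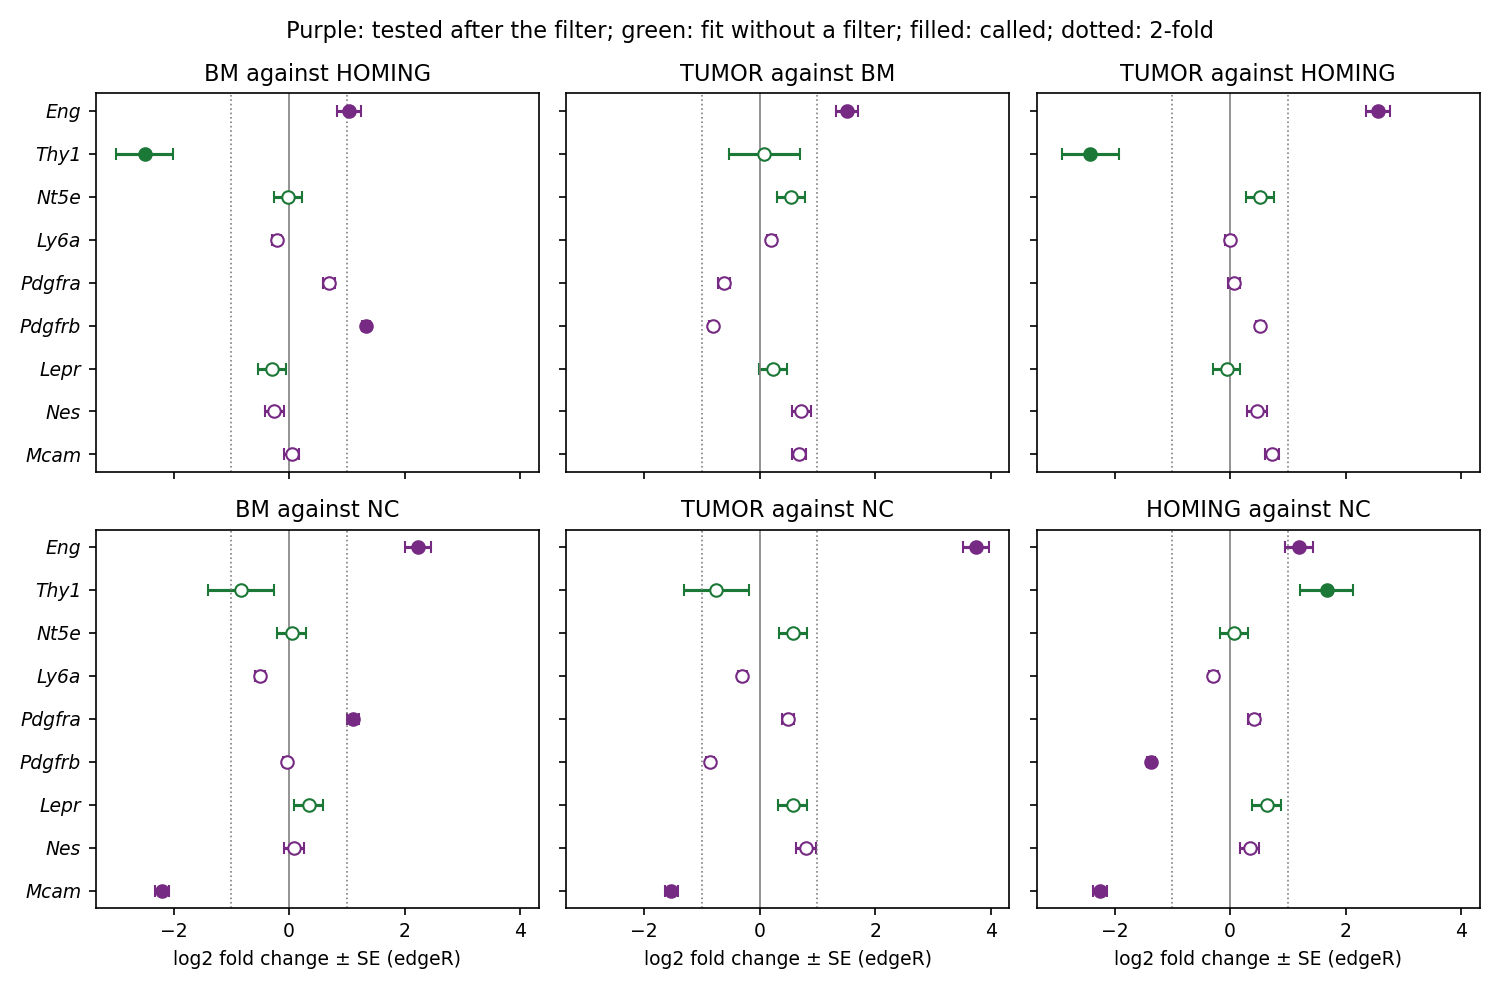
Log2 fold change ± SE of the 9 markers in 6 comparisons, the group named first over the group named second. Purple points come from the fit after the filter and green points from the fit without it, filled points were called, and dotted lines mark 2-fold. Eng is filled to the right in every panel and Mcam to the left in the 3 panels against NC.

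The 3 surface antigens of the usual definition behaved differently from each other. Eng encodes endoglin, a co-receptor for TGF-beta and bone morphogenetic proteins. Its level was 19.29, 10.88 and 11.60 FPKM in TUMOR, 5.04, 4.81 and 4.40 in BM, 2.05, 2.06 and 2.91 in HOMING, and 1.03, 0.85 and 0.95 in NC. The 4 groups did not overlap anywhere in this order, and TUMOR replicate 1 stood above the other TUMOR libraries. Eng was the one marker called in all 6 comparisons. The log2 fold change was 3.74 ± 0.23 (SE) for TUMOR against NC (edgeR, adjusted p = 1.65e-08), a fold of 13.4. It was 2.23 ± 0.23 for BM against NC (edgeR, adjusted p = 3.39e-06) and 1.19 ± 0.24 for HOMING against NC (edgeR, adjusted p = 0.000591). Eng was higher in all 9 libraries of recovered cells than in the 3 cultures. TUMOR exceeded BM by 1.51 ± 0.20 on the log2 scale (edgeR, adjusted p = 2.05e-05) and HOMING by 2.55 ± 0.21 (edgeR, adjusted p = 5.12e-07). BM exceeded HOMING by 1.04 ± 0.21 (edgeR, adjusted p = 0.000972), just over 2-fold, and this call was lost at 0.994 without BM replicate 1, at 0.957 without HOMING replicate 1 and at 0.958 without HOMING replicate 2. Limma on log2(FPKM + 1), a scale that understates changes of low genes, gave 0.792 for BM against HOMING and 0.772 for HOMING against NC, both under 2-fold. Without TUMOR replicate 1 the change was 3.42 against NC, 1.19 against BM and 2.23 against HOMING, all still called.

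Reads of Eng were divided among 3 RefSeq transcripts of nearly the same length. The transcript of 3433 bases took 57.2% of the Eng counts in TUMOR, 56.7% in BM and 42.6% in HOMING, but 0.293% in NC, where it held 1.31 counts over the 3 libraries. The transcript of 3572 bases took 53.2% of the Eng counts in NC and that of 3430 bases 46.5%. Counts per transcript are estimates that split shared reads, so this difference is a description, and the sum over transcripts was used for the test.

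The genes whose pattern was most like that of Eng over the 12 libraries were Etv1 (r = 0.9985), Ahcy (r = 0.9936) and Krt8 (r = 0.9914), among 9074 genes compared. These correlations describe 4 groups of 3 libraries that were sequenced as 1 series. Krt8, a keratin of simple epithelia, had 93.78, 48.13 and 51.94 FPKM in TUMOR, 5.96, 6.44 and 6.47 in BM, 1.34, 1.15 and 1.64 in HOMING, and 0.15, 0.03 and 0.05 in NC. TUMOR replicate 1 was the highest library in Krt8 as in Eng. The summed list of 8 epithelial or carcinoma genes was 69.55 to 115.01 FPKM in TUMOR, 6.38 to 6.97 in BM, 5.90 to 6.45 in HOMING and 1.95 to 4.23 in NC. Krt8 and Krt19 (21.03 to 22.41 FPKM) made up nearly all of it in TUMOR. Epcam reached 0.02 FPKM and Cdh1 0.04 FPKM at most in TUMOR, and Krt18, Cldn4, Sftpc and Nkx2-1 were at most 0.12 FPKM there. The part of carcinoma or epithelial cells in the Eng difference was not tested. Endothelial cells also carry endoglin, and their 10 listed markers summed to 3.15 to 3.40 FPKM in TUMOR, 3.98 to 4.26 in BM, 4.64 to 5.89 in HOMING and 3.45 to 4.53 in NC. Of the 10, 3 were tested. Cdh5 (VE-cadherin) was 0.04 to 0.11 FPKM in TUMOR, 1.29 to 1.47 in BM, 0.41 to 0.51 in HOMING and 0.03 to 0.24 in NC. Flt1, a receptor for vascular endothelial growth factor, was 2.10 to 2.46 FPKM in TUMOR, 1.55 to 1.64 in BM, 1.69 to 1.83 in HOMING and 2.16 to 2.68 in NC. Pecam1 (CD31), which leukocytes carry too, was 0.08 to 0.17 FPKM in TUMOR, 0.12 to 0.23 in BM, 1.19 to 1.98 in HOMING and 0.10 to 0.13 in NC. Blood stem and progenitor cells carry endoglin as well, and their 8 listed markers summed to 26.37 to 32.34 FPKM in TUMOR, 32.86 to 34.34 in BM, 46.40 to 51.20 in HOMING and 31.51 to 32.89 in NC. HOMING replicate 3 was the highest HOMING library in Eng as in Ptprc and Pecam1. Without it the log2 fold change of Eng for HOMING against NC was 1.01 (edgeR, adjusted p = 0.00357), still called. The part of endothelial or blood cells in the Eng differences was not tested.

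**Figure D3:**
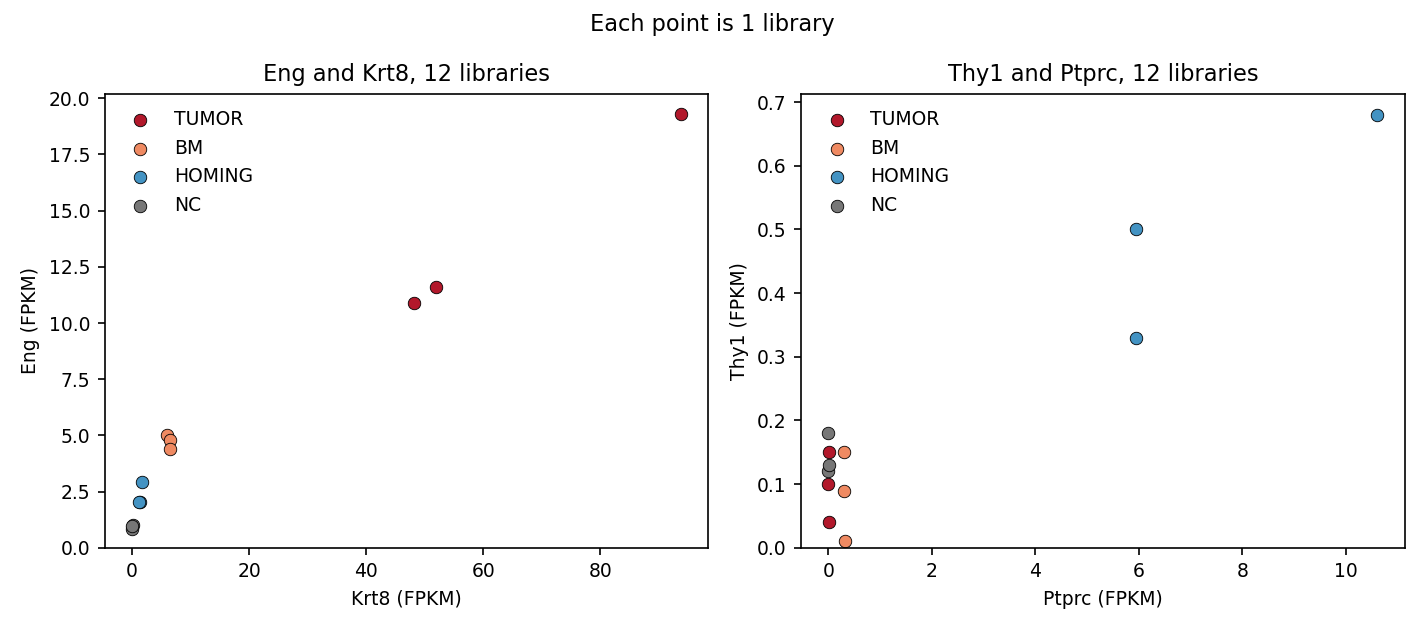
Eng against Krt8 (left) and Thy1 against Ptprc (right), in FPKM on linear axes, with 1 point for each of the 12 libraries. TUMOR replicate 1 is highest in both genes on the left, and HOMING replicate 3 is highest in both genes on the right.

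Thy1 encodes the GPI-anchored glycoprotein CD90. It had 0.04, 0.10 and 0.15 FPKM in TUMOR, 0.01, 0.09 and 0.15 in BM, 0.33, 0.50 and 0.68 in HOMING, and 0.12, 0.13 and 0.18 in NC. HOMING stood above every other library, while TUMOR, BM and NC overlapped. These levels rest on 21 counts in TUMOR, 19 in BM, 112 in HOMING and 33 in NC over 3 libraries each. In the fit without a filter, Thy1 was lower in BM than in HOMING by a log2 fold change of -2.50 ± 0.50 (edgeR, adjusted p = 0.00078) and lower in TUMOR than in HOMING by -2.42 ± 0.49 (edgeR, adjusted p = 0.000898). HOMING exceeded NC by 1.67 ± 0.46 (edgeR, adjusted p = 0.00617). The change in BM against HOMING was -3.15 without BM replicate 3, and limma on log2(FPKM + 1) gave -0.468, -0.450 and 0.389 in these 3 comparisons, all under 2-fold. The edgeR fit without a filter called 12.3% of all genes in BM against HOMING (8.37% lower), 12.9% in TUMOR against HOMING (7.45% lower) and 15.8% in HOMING against NC (10.8% higher). T cells carry Thy1 too, and the 7 listed T cell markers of 8 summed to 0.22 to 0.30 FPKM in TUMOR, 0.34 to 0.41 in BM, 0.78 to 1.19 in HOMING and 0.66 to 0.85 in NC, with Cd3e at most 0.07 FPKM. Lck made up most of the NC sum, at 0.58 to 0.77 FPKM, and was lower in HOMING, at 0.32 to 0.42. The other listed T cell markers averaged more in HOMING than in NC, where Cd3e, Cd3d, Cd3g and Cd2 were at 0. Of 8 markers of blood stem and progenitor cells, which also carry Thy1, Kit was 0.47, 0.47 and 0.75 FPKM in HOMING and at most 0.03 elsewhere. HOMING replicate 3 was highest in Thy1, Ptprc and Kit, and the part of blood cells in the Thy1 level was not tested.

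Nt5e encodes CD73, the ectoenzyme that turns extracellular AMP into adenosine. It had 0.79, 0.53 and 0.56 FPKM in TUMOR, 0.44, 0.37 and 0.39 in BM, 0.31, 0.38 and 0.59 in HOMING, and 0.35, 0.32 and 0.43 in NC. The TUMOR libraries lay above those of BM and NC, and HOMING overlapped with all 3. None of edgeR, DESeq2 and limma called any of the 6 comparisons, and 3 had an unadjusted p under 0.05 in edgeR, all with TUMOR higher. In limma on log2(FPKM + 0.1) the difference between TUMOR and NC had an adjusted p of 0.0244 and was not called because it was under 2-fold. The nearest was TUMOR against NC, with a log2 fold change of 0.58 ± 0.24 (edgeR without a filter, adjusted p = 0.0575).

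Of 12 genes of extracellular adenosine handling, 9 were tested. In HOMING against NC 3 rose and 1 fell (median log2 fold change 0.29, against 0.0096 over all tested genes). Entpd1, which encodes CD39, the enzyme upstream of CD73, had 1.17, 1.21 and 1.85 FPKM in HOMING and at most 0.06 in any other library. The log2 fold change of Entpd1 was 6.48 ± 0.31 for HOMING against NC (edgeR, adjusted p = 1.75e-09) and -4.82 ± 0.25 for BM against HOMING (edgeR, adjusted p = 1.24e-08). The adenosine receptor gene Adora2a changed in the same directions, by 4.73 ± 0.30 and -3.53 ± 0.27. Both passed the filter only through HOMING (Adora2a 2.69 to 4.41 FPKM there, at most 0.35 elsewhere), so their rise there was set by the filter. Entpd2 passed only through NC (1.03 to 1.68 FPKM, at most 0.73 elsewhere). Entpd1 and Adora2a were highest in HOMING, the group with the highest blood markers, whose part in them was not tested. Adora2b, also on the list, was 10.26 to 12.96 FPKM in HOMING, 7.76 to 7.96 in BM, 2.84 to 3.14 in TUMOR and 2.14 to 3.99 in NC.

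Endoglin acts beside receptors and ligands of the TGF-beta family, of which 18 genes were listed and 14 tested. Gdf2 and Bmp10, which encode the ligands that bind endoglin directly, reached at most 0.01 and 0.02 FPKM in any library, and Acvrl1, the receptor they use in endothelium, was 0.04 to 0.05 FPKM in TUMOR, 0.04 to 0.05 in BM, 0.27 to 0.57 in HOMING and 0 to 0.05 in NC. In TUMOR against NC 2 of the 14 rose and 1 fell (median log2 fold change -0.297, against 0.009 over all tested genes). Acvr2b passed the filter only through TUMOR (1.09 to 1.55 FPKM, at most 0.79 elsewhere). Its higher level there was set by the filter. Inhba, the activin A subunit, fell to 14.59, 22.09 and 22.83 FPKM in TUMOR, against 47.74, 48.57 and 49.47 in NC (log2 fold change -1.42 ± 0.12, edgeR, adjusted p = 2.91e-07). In BM against HOMING 1 rose and 3 fell (median -0.208, against -0.0047). Tgfb1 was 8.02, 8.67 and 7.95 FPKM in BM and 29.28, 27.44 and 43.92 in HOMING (log2 fold change -2.00 ± 0.15, edgeR, adjusted p = 2.1e-07), with HOMING replicate 3 highest as in Ptprc. Id1, a target of bone morphogenetic protein signals, was 42.82 to 45.42 FPKM in BM, against 94.01 to 105.91 in HOMING (log2 fold change -1.15 ± 0.06, edgeR, adjusted p = 1.1e-08). Eng was higher in BM than in HOMING in the same libraries.

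Ly6a encodes Sca-1, a GPI-anchored antigen of stromal and blood progenitors that interferon induces. It had 55.86, 69.54 and 68.38 FPKM in TUMOR, 53.22, 54.27 and 55.26 in BM, 64.10, 68.10 and 61.15 in HOMING, and 74.08, 67.06 and 77.16 in NC. It differed least between groups among the 6 tested markers, and the widest gap was under 2-fold. BM was below NC by a log2 fold change of -0.50 ± 0.08 (edgeR, adjusted p = 0.000118) and below HOMING by -0.21 ± 0.08 (edgeR, adjusted p = 0.0353), without overlap of libraries. TUMOR and HOMING could not be separated (log2 fold change -0.01 ± 0.08, edgeR, adjusted p = 0.925). Of 11 interferon response genes tested, all 11 rose in HOMING against NC, and 10 fell in BM against HOMING. In HOMING all 11 averaged at least 1 FPKM, against 6 in every other group, so some could pass the filter through HOMING alone. The filter thus favours a rise there, and these counts are only a description. The summed level of the 11 genes was 24.40 to 29.96 FPKM in TUMOR, 39.85 to 41.58 in BM, 211.55 to 302.97 in HOMING and 22.32 to 25.80 in NC. The blood markers were highest in the same HOMING libraries. The genes whose pattern was most like that of Ly6a were Efemp2 (r = 0.9746), Man2a2 (r = 0.9714) and Gramd4 (r = 0.9473).

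Of 12 other genes of the Ly6 family, 7 were tested. In HOMING against NC 4 rose and 1 fell, with a median log2 fold change of 2.09 against 0.0096 over all tested genes. Ly6d (1.94 to 2.93 FPKM in HOMING, at most 0.04 elsewhere) passed the filter only through HOMING. So did Ly6i (1.55 to 2.23, at most 0.66 elsewhere). The rise of both in HOMING was set by the filter and enters that count and median. Ly6c2, an antigen of monocytes and granulocytes, had 75.00, 70.08 and 104.57 FPKM in HOMING, against 0.84, 0.21 and 0.69 in NC (log2 fold change 7.08 ± 0.26, edgeR, adjusted p = 2.38e-10). In TUMOR against NC 1 rose and 1 fell (median 0.21, against 0.009). Ly6e had 129.43, 73.58 and 80.48 FPKM in TUMOR, against 8.61, 8.25 and 9.85 in NC (log2 fold change 3.27 ± 0.21, edgeR, adjusted p = 2.46e-08). Cd59a, which encodes an inhibitor of complement lysis, was 1.69 to 2.15 FPKM in TUMOR, against 4.92 to 7.01 in NC (log2 fold change -1.73 ± 0.17, edgeR, adjusted p = 1.18e-06). TUMOR replicate 1 was again the highest library in Ly6e.

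The 2 PDGF receptors did not move together. Pdgfra encodes the receptor that binds PDGF-A, PDGF-B and PDGF-C chains. It had 11.82, 13.34 and 13.34 FPKM in TUMOR, 19.88, 19.11 and 18.57 in BM, 12.06, 12.09 and 12.13 in HOMING, and 8.27, 6.93 and 10.03 in NC. BM was highest and NC lowest, with no overlap between these and the other groups. BM exceeded NC by a log2 fold change of 1.10 ± 0.10 (edgeR, adjusted p = 1.72e-06), the 1 comparison in which Pdgfra was called, and by 0.977 without NC replicate 2, under 2-fold. BM exceeded HOMING by 0.69 ± 0.10 (edgeR, adjusted p = 9.97e-05), and TUMOR was below BM by -0.62 ± 0.10 (edgeR, adjusted p = 0.000164), both under 2-fold. TUMOR and HOMING overlapped (log2 fold change 0.07 ± 0.10, edgeR, adjusted p = 0.576).

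Pdgfrb encodes the receptor for PDGF-B, which recruits pericytes to vessels. It had 7.95, 9.51 and 9.36 FPKM in TUMOR, 15.60, 15.71 and 14.77 in BM, 6.31, 6.27 and 6.04 in HOMING, and 14.34, 14.69 and 15.81 in NC. BM and NC formed a high pair that overlapped, TUMOR lay below them and HOMING lowest. BM exceeded HOMING by a log2 fold change of 1.33 ± 0.07 (edgeR, adjusted p = 1.06e-08). HOMING was below NC by -1.37 ± 0.07 (edgeR, adjusted p = 2.61e-09). TUMOR was below NC by -0.86 ± 0.07 (edgeR, adjusted p = 1.4e-07) and below BM by -0.82 ± 0.07 (edgeR, adjusted p = 3.7e-07), both under 2-fold, and BM against NC gave -0.04 ± 0.07 (edgeR, adjusted p = 0.575). Pdgfra in the same HOMING libraries was above its level in NC (log2 fold change 0.41 ± 0.10, edgeR, adjusted p = 0.00326). The blood markers were highest in HOMING, where Pdgfrb was lowest, and their part in the difference of either receptor was not tested.

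The ratio of Pdgfra to Pdgfrb FPKM was 1.49, 1.40 and 1.43 in TUMOR, 1.27, 1.22 and 1.26 in BM, 1.91, 1.93 and 2.01 in HOMING, and 0.577, 0.472 and 0.634 in NC. Pdgfra was the more abundant receptor in all 9 libraries of recovered cells and the less abundant in the 3 libraries of cultured cells. Of the 4 PDGF ligand genes, 2 were tested, with a median log2 fold change of -0.721 in HOMING against NC, beside 0.0096 over all tested genes. Pdgfc had 9.73, 8.58 and 8.92 FPKM in TUMOR, 11.89, 10.89 and 11.52 in BM, 6.35, 6.00 and 6.22 in HOMING, and 13.78, 14.22 and 12.90 in NC. The fall in HOMING against NC was the 1 call among the ligands (log2 fold change -1.25 ± 0.06, edgeR, adjusted p = 2.91e-09). Pdgfa was 7.97 to 8.49 FPKM in BM and 10.38 to 13.81 in the other groups. Pdgfb, the main ligand of the beta receptor, was under 1 FPKM in every library and was not tested. It was 0.68 to 0.85 FPKM in HOMING, 0.19 to 0.33 in TUMOR, 0.17 to 0.25 in BM and 0.20 to 0.23 in NC.

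**Figure D4:**
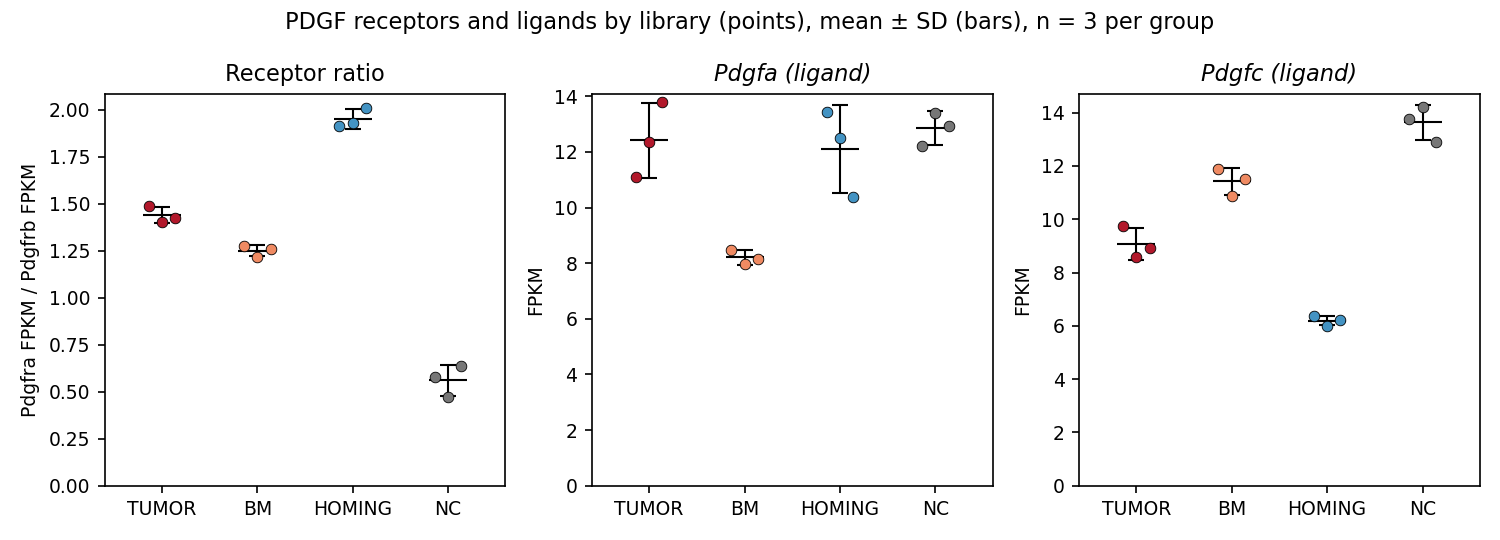
Ratio of Pdgfra to Pdgfrb FPKM (left) and FPKM of the ligand genes Pdgfa and Pdgfc (middle and right) in each library, with 1 point per library and the mean ± SD of 3 libraries as bars. The ratio is above 1 in all TUMOR, BM and HOMING libraries and under 1 in the 3 NC libraries.

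Over the 12 libraries, the genes most like Pdgfra were Nedd4l (r = 0.9785), Klf2 (r = 0.9739) and Gem (r = 0.9704). Those most like Pdgfrb were Glce (r = 0.989), Klf4 (r = 0.9859) and Hhipl1 (r = 0.9848). Klf2 averaged 47.3 FPKM in TUMOR, 88.8 in BM, 49.0 in HOMING and 32.4 in NC. Klf4 averaged 15.6 FPKM in TUMOR, 42.7 in BM, 10.97 in HOMING and 43.4 in NC. The 2 receptors themselves had r = 0.101 with each other.

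Lepr was low in every group. It had 0.22, 0.26 and 0.18 FPKM in TUMOR, 0.16, 0.13 and 0.21 in BM, 0.23, 0.21 and 0.20 in HOMING, and 0.17, 0.15 and 0.08 in NC, from 20.41 to 60.24 counts per library. The groups were close to each other and the return to marrow did not bring Lepr to 1 FPKM in any of the 6 marrow libraries. HOMING exceeded NC by a log2 fold change of 0.63 ± 0.25 (edgeR without a filter, adjusted p = 0.0453), under 2-fold. None of edgeR, DESeq2 and limma called any of the 6 comparisons, and 2 had an unadjusted p under 0.05 in edgeR, both against NC. In limma on log2(FPKM + 0.1) TUMOR against NC had an adjusted p of 0.0421 and was under 2-fold. The transcript that carried 88.3 to 97.4% of the Lepr counts was the same in all groups. Leprot, a gene that shares its first exons with Lepr, had 10.76 to 17.24 FPKM, and counting could split reads between them.

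Of 8 genes around leptin signalling, 7 were tested. Lep itself was listed at 0 in 11 of 12 libraries and at 0.01 FPKM in NC replicate 2. In TUMOR against NC 2 of the 7 fell (median log2 fold change -0.22, against 0.009 over all tested genes). Stat3, the transcription factor downstream of the receptor, fell to 17.68, 18.89 and 18.46 FPKM in TUMOR, against 41.47, 32.92 and 30.19 in NC (log2 fold change -1.05 ± 0.09, edgeR, adjusted p = 4.76e-07). In TUMOR against BM 3 fell (median -0.706, against 0.0098), among them Stat3 (log2 fold change -1.69 ± 0.09, edgeR, adjusted p = 1.34e-08). Socs3, a feedback inhibitor that many cytokines induce, was 41.73, 40.24 and 57.96 FPKM in HOMING, against 12.31, 8.76 and 10.19 in NC (log2 fold change 2.05 ± 0.14, edgeR, adjusted p = 6e-08). The gene products named serve many receptors besides that for leptin.

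The marrow stromal niche list held 18 genes, of which 13 were tested. Grem1, which encodes an antagonist of bone morphogenetic proteins, was the most abundant, with 168.44 to 252.33 FPKM in TUMOR, 463.21 to 475.03 in BM, 257.91 to 260.62 in HOMING and 319.22 to 582.53 in NC. Grem1 fell in TUMOR against NC (log2 fold change -1.10 ± 0.19, edgeR, adjusted p = 0.000168) and in TUMOR against BM (-1.13 ± 0.19, edgeR, adjusted p = 0.000164). Snai2, a transcription factor of mesenchymal cells, was the 1 call in BM against HOMING, with 22.16 to 23.23 FPKM in BM and 7.40 to 8.23 in HOMING (log2 fold change 1.58 ± 0.10, edgeR, adjusted p = 4.08e-08). Its level in NC was 21.28 to 26.28 FPKM, so Snai2, like Pdgfrb, was high in BM and NC and low in HOMING. The median of the list was 0.68 in BM against HOMING, beside -0.0047 over all tested genes.

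Nes encodes nestin, an intermediate filament protein of progenitor cells. It had 14.98, 13.64 and 13.68 FPKM in TUMOR, 8.50, 8.41 and 7.96 in BM, 10.39, 9.82 and 9.99 in HOMING, and 5.66, 6.16 and 10.17 in NC. TUMOR stood above all other libraries, and NC replicate 3 stood apart from the other cultures. TUMOR exceeded NC by a log2 fold change of 0.80 ± 0.17 (edgeR, adjusted p = 0.000848), BM by 0.72 ± 0.17 (edgeR, adjusted p = 0.00205) and HOMING by 0.47 ± 0.17 (edgeR, adjusted p = 0.0313), all under 2-fold. Without NC replicate 3 the change for TUMOR against NC was 1.13 and was called (edgeR, adjusted p = 1.65e-08). The genes most like Nes were Nmt2 (r = 0.9884), Sec24d (r = 0.9804) and Tarsl2 (r = 0.979). Of 7 other intermediate filament genes 4 were tested, and the 1 call was Vim in TUMOR against BM, with 1900.64 to 1949.53 FPKM in TUMOR and 813.54 to 893.19 in BM (log2 fold change 1.11 ± 0.06, edgeR, adjusted p = 6.52e-09). Vim, which encodes vimentin, is thus another filament gene with its highest level in TUMOR.

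Mcam encodes CD146, an adhesion molecule of pericytes, endothelium and cultured stromal cells. It had 3.96, 5.62 and 4.56 FPKM in TUMOR, 3.01, 2.69 and 2.88 in BM, 2.95, 3.01 and 2.56 in HOMING, and 12.22, 14.20 and 11.07 in NC. Culture was highest without overlap, and TUMOR lay above both marrow groups. Mcam fell in all 3 kinds of recovered cells. The log2 fold change was -1.53 ± 0.12 for TUMOR against NC (edgeR, adjusted p = 1.3e-07), -2.20 ± 0.12 for BM against NC (edgeR, adjusted p = 2.59e-08) and -2.25 ± 0.12 for HOMING against NC (edgeR, adjusted p = 6.02e-09). BM and HOMING overlapped (log2 fold change 0.04 ± 0.13, edgeR, adjusted p = 0.791). TUMOR exceeded BM by 0.68 ± 0.12 (edgeR, adjusted p = 0.000329) and HOMING by 0.72 ± 0.12 (edgeR, adjusted p = 0.000319), both under 2-fold. An assembled transcript beside the RefSeq one took 23.3% of the Mcam counts in TUMOR, 26.5% in BM, 28.5% in HOMING and 34.9% in NC. The genes most like Mcam over the 12 libraries were Lgalsl (r = 0.9834), Mfge8 (r = 0.9828) and Efna5 (r = 0.9809).

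Other genes of pericytes and mural cells fell or rose outside culture, and more of the tested ones fell. Of 10 listed genes 5 were tested, and in TUMOR against NC 3 fell and 1 rose, in BM against NC 3 fell and 1 rose, and in HOMING against NC 4 fell and 1 rose. Their median log2 fold change was -1.52, -1.59 and -1.87 in these comparisons, beside 0.009, 0.0157 and 0.0096 over all tested genes. Cspg4, which encodes the pericyte antigen NG2, had 1.96, 2.57 and 2.56 FPKM in TUMOR, 1.90, 2.04 and 1.66 in BM, 2.11, 2.22 and 2.07 in HOMING, and 5.22, 6.94 and 9.51 in NC. All 9 libraries of recovered cells lay below the 3 cultures. The log2 fold change of Cspg4 was -1.74 ± 0.18 for TUMOR against NC (edgeR, adjusted p = 2.26e-06), -2.04 ± 0.19 for BM against NC (edgeR, adjusted p = 1.33e-06) and -1.87 ± 0.19 for HOMING against NC (edgeR, adjusted p = 1.41e-06). Acta2, smooth muscle actin, was 94.59 to 140.74 FPKM in TUMOR, 114.43 to 123.96 in BM, 93.05 to 103.44 in HOMING and 230.64 to 435.30 in NC, and was called lower in each of the 3. The gene that rose was Anpep, also a surface antigen of stromal cells. Notch3, a receptor of mural cells, was 1.14 to 1.51 FPKM in TUMOR, 0.62 to 0.77 in BM, 0.49 to 0.50 in HOMING and 0.95 to 1.29 in NC. Des, which encodes desmin and was under the filter, was 0.41 to 0.74 FPKM in TUMOR, against 0.09 to 0.12 in NC. Rgs5 and Kcnj8, used to define pericytes in tissue, were at most 0.16 and 0.06 FPKM, so those defining markers were near 0 throughout.

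The fuller set of 17 mesenchymal surface antigens, of which 15 were tested, held antigens that rose as well as fell outside culture. In TUMOR against NC 3 rose and 1 fell, in BM against NC 5 rose and 1 fell, and in HOMING against NC 4 rose and 1 fell. The medians were -0.256, 0.358 and 0.359, beside 0.009, 0.0157 and 0.0096 over all tested genes. Of the 15, Cd200 passed the filter only through HOMING (1.02 to 2.22 FPKM, at most 0.83 elsewhere). Its higher level there was set by the filter. Anpep, the aminopeptidase CD13, had 2.98, 1.91 and 2.11 FPKM in TUMOR, 2.01, 2.02 and 1.58 in BM, 2.70, 2.47 and 4.36 in HOMING, and 0.23, 0.24 and 0.32 in NC. It was thus another antigen, beside Eng, that was low in culture and higher in all 9 recovered libraries. The log2 fold change of Anpep was 3.12 ± 0.27 for TUMOR against NC (edgeR, adjusted p = 4.02e-07), 2.81 ± 0.27 for BM against NC (edgeR, adjusted p = 2.28e-06) and 3.57 ± 0.27 for HOMING against NC (edgeR, adjusted p = 1.28e-07). Myeloid cells carry CD13 as well, and HOMING replicate 3 was the highest library in Anpep as in Ptprc.

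Pdpn, the mucin-like glycoprotein podoplanin, had 35.70, 49.45 and 44.66 FPKM in TUMOR, 278.74, 277.29 and 283.06 in BM, 124.75, 119.36 and 133.49 in HOMING, and 96.25, 88.74 and 115.00 in NC. BM was highest and TUMOR lowest, without overlap. The log2 fold change was -2.74 ± 0.12 for TUMOR against BM (edgeR, adjusted p = 1.54e-09), 1.18 ± 0.11 for BM against HOMING (edgeR, adjusted p = 1.63e-06) and -1.34 ± 0.11 for TUMOR against NC (edgeR, adjusted p = 2.77e-07). Cd248, endosialin, had 11.12 to 11.93 FPKM in TUMOR, 3.19 to 4.13 in BM, 5.74 to 6.11 in HOMING and 2.39 to 4.41 in NC, a log2 fold change of 1.69 ± 0.17 for TUMOR against NC (edgeR, adjusted p = 1.51e-06). The adhesion molecules Icam1 and Vcam1 were among the 5 antigens that fell in TUMOR against HOMING. Icam1 was 0.11 to 0.18 FPKM in TUMOR, 1.46 to 1.61 in BM, 3.19 to 5.46 in HOMING and 0.12 to 0.24 in NC, and like Ptprc it was highest in HOMING and next highest in BM. Vcam1 was 5.99 to 8.02 FPKM in TUMOR, 24.83 to 25.27 in BM, 14.11 to 15.91 in HOMING and 8.44 to 14.09 in NC. Ngfr, the antigen CD271, was at most 0.15 FPKM in any library.

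The antigens that should be absent from stromal cells gave a mixed picture in culture. Ptprc was at most 0.01 FPKM in TUMOR, 0.30 to 0.31 in BM, 5.94 to 10.61 in HOMING and at most 0.01 in NC. Cd34, on the same list of 9 negative markers, was 84.02 to 110.17 FPKM in TUMOR, 97.85 to 103.41 in BM, 89.00 to 98.57 in HOMING and 147.65 to 196.13 in NC. Cd34 is carried by stromal cells as well as by blood progenitors in the mouse, and it was highest in the culture, where Ptprc was near 0. Fibroblast genes were abundant in all groups, with 9 of 11 above 1 FPKM in each. Against NC 3 of the 9 tested fell in TUMOR, 2 in BM and 3 in HOMING, and 1 rose, in BM. The median log2 fold changes were -0.55, -0.585 and -0.924. In BM against HOMING 2 rose and 0 fell (median 0.272, against -0.0047 over all tested genes). Vim, S100a4 and Mfap5 averaged less in BM than in HOMING, without a call. Dcn, the matrix proteoglycan decorin, was 52.44 to 73.17 FPKM in TUMOR, 593.68 to 625.84 in BM, 192.06 to 224.55 in HOMING and 78.67 to 118.90 in NC, and rose in BM against HOMING by 1.58 ± 0.14 on the log2 scale (edgeR, adjusted p = 9.32e-07).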

How the data were processed

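RNA was sequenced from sorted GFP-marked mouse BMSCs, in 4 groups of 3 libraries taken from the sample titles. Per the labels, libraries were made with the Illumina TruSeq kit from Trizol RNA. Reads were mapped with Bowtie 0.12.2 and genome build mm8 is named, per the submitters' processing notes, and the counting program and its use of strand are not given in the sources used here. The deposited tables hold an expected count for each transcript, estimated and not normalized, and FPKM, which the authors scaled by length and depth. Here both were summed per Entrez number, with unlisted transcripts set to 0. Of 19679 Entrez numbers, 19629 matched a symbol in RefSeq (GRCm38.p6, used for names and promoters), and 1322 genes had none.

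Rounded expected counts of the 12314 genes that reached 1 FPKM in 3 or more libraries were fitted in edgeR 4.0.16 (R 4.3.3) over the 4 groups, with TMM factors of 0.929 to 1.039 and a two-sided quasi-likelihood F-test. P-values were adjusted by Benjamini-Hochberg over all genes tested, and calls needed an adjusted p under 0.05 and a 2-fold change. No 2 libraries of a group agreed within sampling noise (chi-square per degree of freedom 3.155 to 51.78), and Pearson's r of log2(FPKM + 1) was 0.9923 to 0.9986 within groups.

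The markers and gene lists were chosen with earlier results of these data known. Every marker is named, with up to 4 genes per list and comparison (those called with the smallest adjusted p, or the most abundant), and the 3 tested genes most like each tested marker by Pearson's r. Similar genes needed a mean of 5 FPKM in their highest group. Genes near 0 that define a cell type or bind a marker, and genes named for setting a marker's level beside them, were chosen after their values were seen. Alternatives were DESeq2 1.42.0, limma 3.58.1 on log2(FPKM + 1) and log2(FPKM + 0.1), other scaling, no filter, the most abundant transcript, the compared groups alone, a call without the 2-fold limit, a replicate block, and fits that omit 1 library. Tables and plots used Python 3.11.15, pandas 2.3.3 and matplotlib 3.10.9.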

Additional observations from a re-analysis of the deposited data

How the results depend on the processing

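Of the 15 called changes of single markers, 228 of 237 refits kept the direction and the call, and 9 kept the direction but lost the call. Limma on log2(FPKM + 1), which understates changes of low genes, lost Eng in BM against HOMING (0.792) and in HOMING against NC (0.772) and Thy1 in 3 comparisons, and so called 1 marker in BM against HOMING. Leaving out 1 library gave 1 to 2 markers called in BM against HOMING, 2 to 3 in TUMOR against NC and 2 to 3 in BM against NC. With no minimum fold change 4 markers passed in BM against HOMING, 6 in TUMOR against NC, 5 in HOMING against NC, 6 in TUMOR against BM and 4 in TUMOR against HOMING. Most of the 12314 tested genes also passed at that setting in each comparison, so these counts do not set the markers apart. Without the filter 2 passed in TUMOR against HOMING, beside 12.9% of all genes in that fit.

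Over all genes, called counts in the order BM against HOMING, TUMOR against NC, BM against NC, HOMING against NC, TUMOR against BM and TUMOR against HOMING were 1280, 2019, 1416, 1765, 1752 and 1329. They were 2581, 3420, 2537, 3302, 3162 and 2702 without the filter, which tests more genes, and 7158, 9068, 8198, 8617, 8576 and 6776 with no minimum fold change. Limma on log2(FPKM + 1) called 1301 in TUMOR against NC, 626 in BM against NC and 930 in TUMOR against BM.

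Directions turned only for changes that were not called, and the cause was not tested. Pdgfrb in BM against NC turned to 0.0375 and 0.0398 with limma at pseudocounts of 1 and 0.1 and to 0.0393 with library size scaling, and ranged from -0.083 to 0.013 with 1 library left out. In TUMOR against HOMING, Ly6a turned to 0.0026 with library size scaling, 0.064 with the most abundant transcript and 0.00083 with the compared groups alone (-0.061 to 0.078 with 1 library left out), Pdgfra to -0.20 with the most abundant transcript, and Lepr to 0.0075 and 0.0239 with limma (-0.21 to 0.033 with 1 library left out). Leaving out 1 library gave Nt5e -0.21 to 0.29 in BM against HOMING, -0.050 to 0.19 in BM against NC and -0.25 to 0.26 in HOMING against NC, Mcam -0.026 to 0.086 in BM against HOMING, Nes -0.082 to 0.41 in BM against NC and Thy1 -0.42 to 0.73 in TUMOR against BM.

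Replicate numbers were not taken to pair libraries: 1 of 18 same-numbered pairs had a correlation of deviations over 0.1, and in 14 of 36 sets of a library against another group the library correlated best with its own number. With the replicate block the called genes were 1285, 2018, 1421, 1770, 1750 and 1325 in the order above, and the called markers stayed at 2, 2, 3, 3, 1 and 1. Low counts limit Thy1, Nt5e and Lepr, at 1 to 120 counts per library.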
